A study of Mus musculus with 6 samples.

Results

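The potassium channel genes described here are the rows of the authors' deposited table whose gene symbol starts with Kcn. There were 4 such genes among the 637 rows: Kcnj2, Kcne4, Kcnf1 and Kcng1. RNA was sequenced from the hippocampus of wild-type C57BL/6 mice aged 56 days, in 3 samples after focal middle cerebral artery occlusion (ischemia) and 3 samples after a sham operation, both titled 2 h. What the 2 h refers to, which side of the brain was taken and how many animals were used is not stated in the labels. The test behind the authors' p-values is not stated either. Which spread they cover is therefore unknown, and part of it may be technical. For every gene the table gives 1 mean of normalised reads in each group, under the headers M2 and S2. M2 was taken as the occlusion group and S2 as the sham group by the initial letters of their treatments, and all directions below depend on this. The table holds only genes that the authors called at an adjusted p-value of 0.05, so the hippocampal identity of the tissue could not be checked against markers, and for a gene that is not listed neither its level nor an absence of change is shown.

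Potassium channels let potassium ions cross the membrane and thereby set the resting potential of a cell and end its action potentials. Inward rectifiers (Kir channels) pass potassium more readily into the cell than out of it and hold the membrane close to the potassium equilibrium potential, whereas voltage-gated (Kv) channels open on depolarisation. Some Kv subunits are electrically silent: they form no working channel of their own and change the gating of the channels they assemble with. Auxiliary subunits have no pore and modify pore-forming partners. In the ischemic brain, the loss of energy supply lets potassium accumulate outside the cells, which is why these channels have been studied in stroke.

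The 4 genes cover these roles. Kcnj2 encodes the pore-forming inward rectifier subunit Kir2.1, Kcnf1 and Kcng1 encode the silent voltage-gated subunits Kv5.1 and Kv6.1, which assemble with other Kv subunits, and Kcne4 encodes an auxiliary subunit with a single membrane-spanning segment. RefSeq also lists Kcnf1 as an older name of Kcnj2, but the deposited table keeps the genes in separate rows with separate identifiers and descriptions. The difference between pore-forming and auxiliary members is visible in their coding sequences, taken from the GENCODE M21 transcripts (GRCm38) and shown from 5′ to 3′ because the codons for glycine, tyrosine and glycine in capitals form the selectivity filter that distinguishes a potassium pore.
Kcnj2: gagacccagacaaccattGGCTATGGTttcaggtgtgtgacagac
Kcnf1: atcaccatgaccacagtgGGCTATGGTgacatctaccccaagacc
Kcng1: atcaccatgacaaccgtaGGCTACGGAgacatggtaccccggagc
The filter codons occurred 1 time in frame in each of these 3 genes, beginning at codon 144 of 428 in Kcnj2, codon 384 of 505 in Kcnf1 and codon 426 of 514 in Kcng1. The 170 codons of Kcne4 contained 0 such runs. The silent subunits thus carry the filter codons although they form no channel alone.

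Of the 4 genes, the inward rectifier Kcnj2, the auxiliary subunit gene Kcne4 and the silent Kv subunit gene Kcnf1 rose in ischemia, and the other silent Kv subunit gene, Kcng1, fell. The rises were 8.92-fold for Kcnj2, 5.60-fold for Kcne4 and 2.59-fold for Kcnf1, and the fall of Kcng1 was 1.91-fold, in the authors' deposited table. In the whole of the authors' deposited table the median fold was 2.10 among the 415 higher genes and 1.60 among the 222 lower genes. Because the samples are bulk tissue, a change in RNA per cell and a change in the number of cells that express a gene cannot be told apart.

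**Figure D1:**
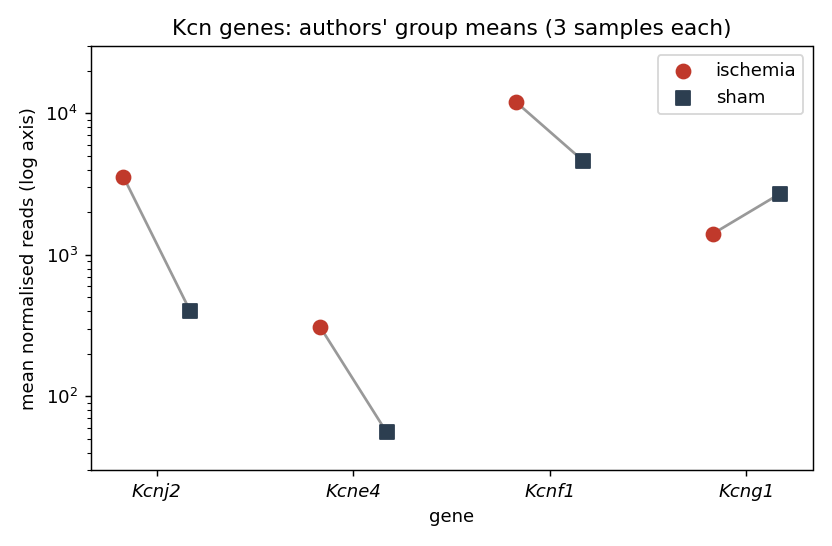
Mean normalised reads of the 4 Kcn genes (log axis) in the authors' deposited table, with ischemia (circles) left of sham (squares) and a line joining the 2 means of a gene. Each mean is over 3 samples and has no error in the table. Lines slope down from ischemia to sham for Kcnj2, Kcne4 and Kcnf1, and up for Kcng1 (1410 in ischemia and 2699 in sham).

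The mouse annotation GENCODE M21 contains 94 protein-coding Kcn genes, of which 3 were called higher and 1 lower, or 4.26%. Over all genes, 2.25% were called (637 of the 28319 tests that the authors' adjusted p-values imply), with 1.47% higher and 0.784% lower. With 4 genes, this share of the family was not read as a difference from the background, and the number of Kcn genes that entered the authors' test is unknown. Of the 15 Kir genes, Kcnj2 was called and 14 were not, among them Kcnj4, Kcnj12 and Kcnj14, which encode the other members of the Kir2 subfamily, and the glial channel gene Kcnj10. Of the 40 Kv alpha subunit genes, Kcnf1 was called higher and Kcng1 lower. Both belong to the 10 silent subunit genes, of which the other 8 were not listed. The 14 genes of the K2P leak channels and the 8 genes of the calcium- and sodium-activated channels had 0 listed members, and of 21 auxiliary subunit genes Kcne4 was listed.

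**Figure D2:**
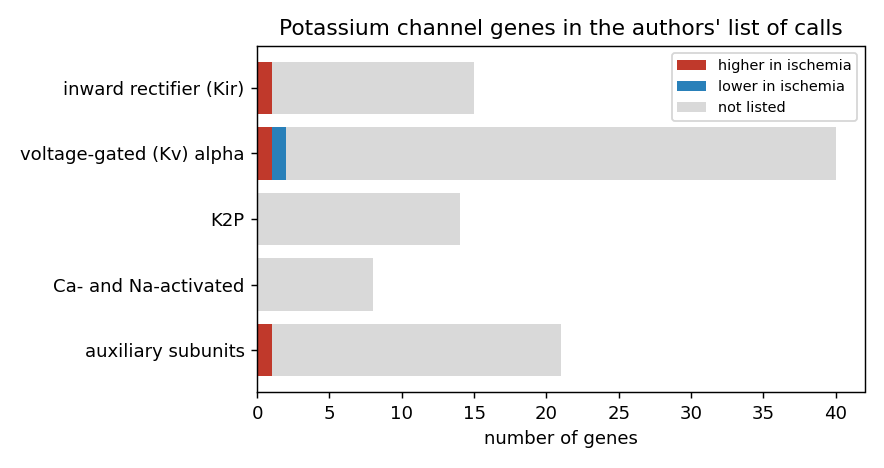
Number of potassium channel genes by class (horizontal axis), split into genes called higher in ischemia, called lower in ischemia, and not listed in the authors' deposited table. Listed genes were 1 of 15 Kir, 2 of 40 Kv alpha, 0 of 14 K2P, 0 of 8 calcium- and sodium-activated and 1 of 21 auxiliary subunit genes.

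Kcnj2 had the largest fold of the 4 genes. It averaged 3571 normalised reads in ischemia and 401 normalised reads in sham in the authors' deposited table, a log2 fold change of 3.16 (adjusted p = 8.68e-07, the authors' test). Among the higher genes of the authors' deposited table its fold ranked 42 of 415, and among all rows its p-value ranked 87 of 637. Kcnj2 lies on chromosome 11, and its 1 annotated transcript has 2 exons and 5444 bases. The neighbouring Kir gene Kcnj16, 38.2 kb away on GRCm38, was not listed in the authors' deposited table.

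Whole reads per library could be separated from a group mean of at most 450 where exactly 1 set of whole numbers returns it. The libraries are lettered A to C in each group by falling size factor and cannot be matched to replicate numbers. The sham mean of Kcnj2 separated into 419 reads in library A, 417 in library B and 416 in library C. After division by the size factors these were 349, 377 and 476 normalised reads, or 401 ± 66.6 (SD, n = 3). Library C was the highest, 1.36 times the lowest. The ischemia mean of Kcnj2 was too high to be separated, so its spread is unknown. Leaving out single sham libraries moved its log2 fold change between 3.07 and 3.30.

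Kcne4 was scarcer, and its 6 library values could be separated. In ischemia libraries A, B and C it had 568, 237 and 161 reads, against 70, 53 and 53 reads in sham libraries A, B and C. These correspond to 471, 270 and 192 normalised reads in ischemia, against 58.3, 47.9 and 60.6 normalised reads in sham. The groups did not overlap, and the lowest ischemia library was 3.17 times the highest sham library. Kcne4 averaged 311 ± 144 normalised reads in ischemia and 55.6 ± 6.79 normalised reads in sham (SD, n = 3 each). The authors' deposited table gives Kcne4 a log2 fold change of 2.48 and an adjusted p = 0.0189 by the authors' test. A two-sided exact permutation test of the 6 values gave p = 0.1, the smallest that 3 samples against 3 allow. All 63 higher genes whose 6 libraries could be separated had groups that did not overlap, and such groups always give this p-value. Neither the lack of overlap nor the permutation p-value therefore sets Kcne4 apart from other called genes.

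The ischemia libraries were spread more widely than the sham libraries in Kcne4. Library A had 2.45 times as many normalised reads as library C in ischemia, while the highest sham library had 1.27 times as many as the lowest. Over the 65 higher genes whose ischemia mean could be separated, the median of this ratio was 1.68 in ischemia. The exact Poisson 95% intervals, which cover counting error only, were 433 to 512 for ischemia library A, 237 to 307 for library B and 164 to 225 for library C. Those of the 3 sham libraries lay between 35.9 and 79.3. No test of the spread between libraries was made. Library A was the highest ischemia library in 26.2% of these 65 higher genes and in 58.1% of the 74 lower genes with a separated ischemia mean; without library A the log2 fold change of Kcne4 was 2.06.

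**Figure D3:**
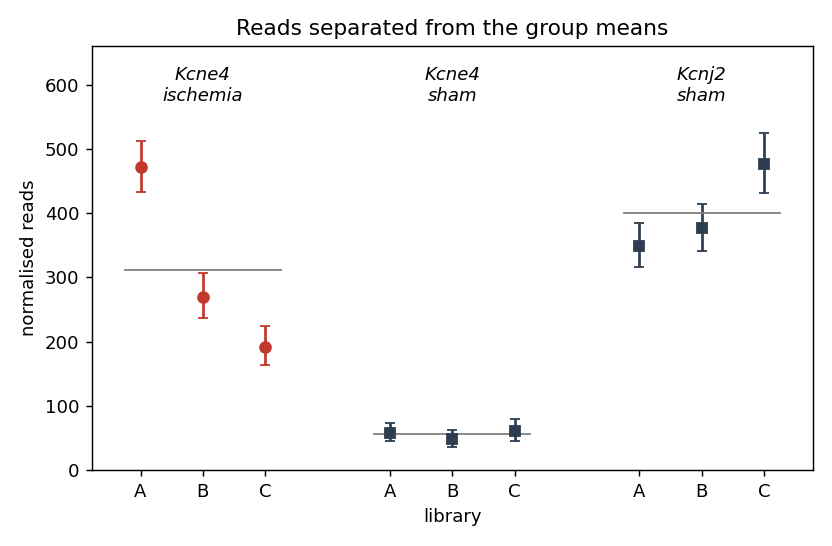
Normalised reads per library (vertical axis) for Kcne4 in ischemia and sham and for Kcnj2 in sham, with libraries lettered by size factor. Bars are exact Poisson 95% intervals of the reads, and grey lines are group means. The Kcne4 values lie between 192 and 471 in ischemia, all above the 47.9 to 60.6 of sham, and the Kcnj2 sham values lie between 349 and 476.

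The silent subunit genes moved in opposite directions. Kcnf1 averaged 11969 normalised reads in ischemia and 4618 normalised reads in sham in the authors' deposited table, a log2 fold change of 1.37 (adjusted p = 0.000328, the authors' test). Its fold ranked 163 of the 415 higher genes of the authors' deposited table. Kcng1 averaged 1410 normalised reads in ischemia and 2699 normalised reads in sham in the authors' deposited table, a log2 fold change of -0.94 (adjusted p = 0.00124, the authors' test). It ranked 55 of the 222 lower genes by fold in the authors' deposited table. Their group means were too high for reads per library, so no spread can be given for either gene. Kcnf1, on chromosome 12, has 1 transcript of a single exon, and Kcng1, on chromosome 2, has 3 annotated transcripts. No exon of the 4 Kcn genes shares bases with an exon of another gene in GENCODE M21.

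Levels of different genes were compared as the authors' means per kilobase of the longest annotated transcript. In ischemia, Kcnf1 was at 2499, Kcnj2 at 656, Kcng1 at 345 and Kcne4 at 117 normalised reads per kilobase. In sham, Kcnf1 was at 964, Kcng1 at 660, Kcnj2 at 73.6 and Kcne4 at 20.9 normalised reads per kilobase. Kcnj2 and Kcng1 thus stood in reverse order in the groups: the ratio of Kcnj2 to Kcng1 was 1.90 in ischemia and 0.111 in sham. The ratio of Kcnf1 to Kcng1 was 7.25 in ischemia and 1.46 in sham. The order of Kcnf1 and Kcng1 in sham depended on the transcript length: with the mean length of the 3 Kcng1 transcripts the ratio was 4.10 in ischemia and 0.826 in sham. With that length the ratio of Kcnj2 to Kcng1 was 1.07 in ischemia and 0.063 in sham. Of the summed level of the 3 pore-forming genes, Kcnj2 made up 18.7% in ischemia and 4.33% in sham, Kcnf1 71.4% in ischemia and 56.8% in sham, and Kcng1 9.85% in ischemia and 38.9% in sham. With the mean transcript length Kcng1 made up 16.2% in ischemia and 53.0% in sham, Kcnf1 66.4% in ischemia and 43.7% in sham, and Kcnj2 17.4% in ischemia and 3.34% in sham. These ratios and shares rest on group means without a spread and were not tested. Their shifts between the groups follow from the folds given above. Pore-forming genes that are not listed have no level here, so the shares do not describe the potassium channels of the tissue.

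**Figure D4:**
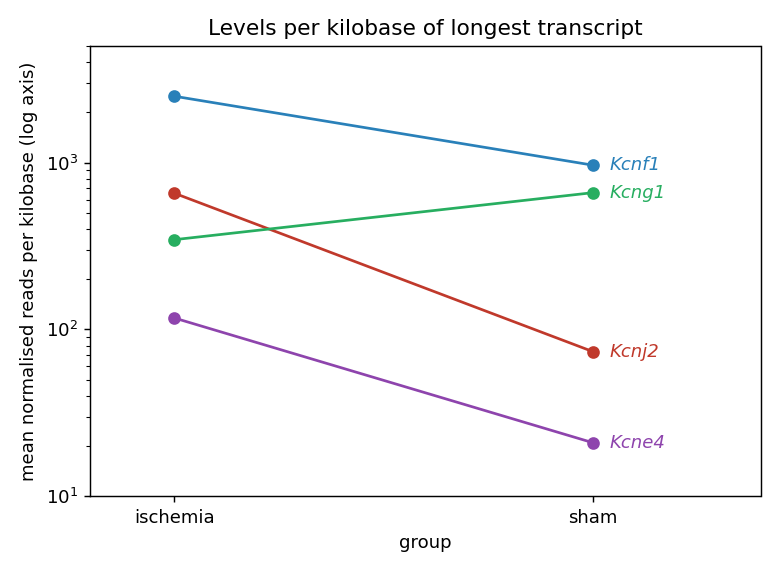
Mean normalised reads per kilobase of the longest annotated transcript (log axis) for the 4 Kcn genes, in ischemia on the left and sham on the right. The lines of Kcnj2 (656 in ischemia and 73.6 in sham) and Kcng1 (345 in ischemia and 660 in sham) cross.

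For each Kcn gene, the most similar of the other 580 rows with a symbol and a sham mean above 0 were taken by the Euclidean distance between the log2 means, over the 2 group means. Nearest to Kcnj2 was Nfil3, which encodes a transcriptional repressor of the clock, at a distance of 0.10 and with 3696 normalised reads in ischemia and 427 normalised reads in sham in the authors' deposited table. The immediate-early genes Cyr61 (distance 0.47) and Ier2 (distance 0.48) followed, and were 10.8-fold and 7.62-fold higher in the authors' deposited table. Among the nearest to Kcne4 were Gm17024 (distance 0.35) and the costimulatory receptor ligand gene Cd86 (distance 0.52), which were 7.75-fold and 3.49-fold higher in the authors' deposited table.

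Nearest to Kcnf1 were the vesicle protein gene Syt4 (distance 0.24), the kinase gene Sgk1 (distance 0.33) and the stress-responsive transcription factor gene Atf4 (distance 0.37). They were 2.10-fold, 2.33-fold and 1.81-fold higher in the authors' deposited table. Nearest to Kcng1 was Rasl10a, a gene of a Ras-like small GTPase, at a distance of 0.08, with 1462 normalised reads in ischemia and 2806 normalised reads in sham in the authors' deposited table. Fgd4, which encodes an exchange factor for the GTPase Cdc42, and Otub2, which encodes a deubiquitinase, followed at distances of 0.14 and 0.23 and were 1.68-fold and 1.60-fold lower in the authors' deposited table. With 2 means per gene, likeness here covers level and fold, and no pattern across samples.

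**Figure D5:**
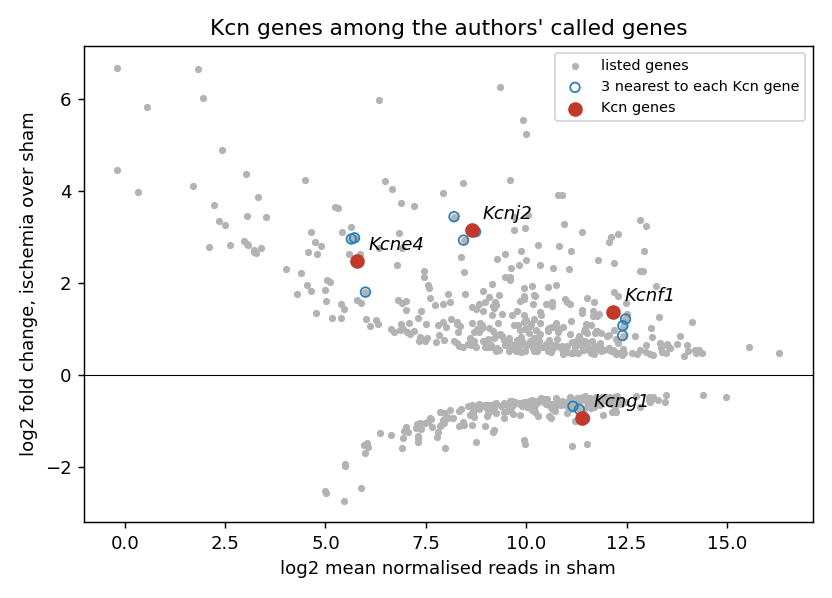
Log2 fold change of ischemia over sham against the log2 mean normalised reads in sham for the genes of the authors' deposited table with a sham mean above 0. Filled red points are the 4 Kcn genes and open circles are the 3 genes nearest to each. Kcnj2 and Kcne4 lie at 3.16 and 2.48, Kcnf1 at 1.37 and Kcng1 at -0.94.

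Upstream sequences are shown for the Kcn genes that had a matched promoter window. These happen to be the 3 genes that rose, since Kcng1 had no match. RefSeq promoter windows on GRCm38.p6 were matched by symbol for 3 of the 4 genes, and the 250 bases before the annotated start were searched on both strands for 8 motifs. These were the cyclic AMP response element (CRE), spelled TGACGTCA, with its core TGACG. The AP-1 site was spelled TGANTCA and the E-box CACGTG. The CArG box bound by serum response factor was searched under its usual definition. The CCAAT box, the GC box GGGCGG and the TATA box, spelled TATAAA, completed the set. The full CRE contains the core. The sequences run from 5′ to 3′ on the strand of the gene, with matches in capitals.
Kcnj2, chr11:111065914-111066163, plus strand: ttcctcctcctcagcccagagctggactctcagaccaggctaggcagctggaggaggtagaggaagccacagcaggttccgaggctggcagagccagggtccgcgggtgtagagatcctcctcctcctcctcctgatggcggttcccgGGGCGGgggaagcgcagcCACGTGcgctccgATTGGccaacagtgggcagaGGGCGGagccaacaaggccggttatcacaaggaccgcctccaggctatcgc
Kcne4, chr1:78816661-78816910, plus strand: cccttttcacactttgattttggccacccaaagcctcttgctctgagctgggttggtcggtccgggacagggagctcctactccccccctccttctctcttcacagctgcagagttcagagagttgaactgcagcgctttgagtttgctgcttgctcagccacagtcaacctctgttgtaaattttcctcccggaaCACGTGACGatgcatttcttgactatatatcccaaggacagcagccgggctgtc
Kcnf1, chr12:17176889-17177138, minus strand: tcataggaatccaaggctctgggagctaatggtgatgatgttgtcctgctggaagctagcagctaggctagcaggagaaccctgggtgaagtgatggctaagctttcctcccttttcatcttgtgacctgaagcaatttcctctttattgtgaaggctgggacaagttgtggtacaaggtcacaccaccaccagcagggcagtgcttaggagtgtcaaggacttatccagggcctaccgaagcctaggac
The Kcnj2 window held 1 E-box, 1 CCAAT match on the opposite strand and 2 GC boxes, and its GC content was 65.6%. The Kcne4 window (53.2% GC) held 1 E-box overlapping 1 CRE core. The Kcnf1 window (51.2% GC) held none of the 8 motifs. Among all 32851 promoter windows of the same length, 6.02% held the E-box, 17.8% the CRE core, 33.8% the CCAAT box and 32.7% the GC box. The full CRE, the AP-1 site, the CArG box and the TATA box occurred in 0 of the 3 windows and in 1.55%, 6.75%, 1.47% and 12.4% of all windows. A match describes these letters and does not show binding.

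Other genes of ion movement were compared from a list. Of a chosen 36 sodium, calcium, HCN and TRP channel genes, 0 were listed. These 36 do not hold every such gene. The calcium channel gene Orai2, outside them, was listed as lower. It had 7513 normalised reads in ischemia and 11244 normalised reads in sham (log2 fold change -0.58). Of 13 genes of potassium and chloride transport, Atp12a, a subunit gene of a proton and potassium pump, was listed: in the authors' deposited table it rose to 82.3 normalised reads in ischemia, against 1.46 in sham (authors' adjusted p = 0.00040). Of 14 genes of Kir2 scaffolds and traffic partners, 0 were listed. Over all genes 2.25% were called, so counts of 0 in lists of these sizes were not read as a result.

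Other cell types of the tissue express members of this family, among them microglia, vascular cells and astrocytes. Among 15 microglia markers the authors' deposited table lists Fcrls as 1.47-fold and Ly86 as 1.53-fold higher. In the authors' deposited table, S100a8 (6.78-fold) and S100a9 (12.9-fold) were higher among 14 blood leukocyte markers. Among 10 oligodendrocyte markers, of which 6 were not listed, Cnp, Cldn11 and Ermn were higher, by 1.34-fold to 1.39-fold, in the authors' deposited table. Of 12 endothelial markers Sox18 was 2.16-fold lower, and of 12 dentate granule cell markers Lct and Dsp were 2.92-fold and 2.83-fold lower, in the authors' deposited table. Markers of pericytes and smooth muscle (12 genes), astrocytes (11), pyramidal cells (11) and interneurons (11) had 0 listed members. With 2.25% of all genes called, 0 in lists of these sizes was not read as a result. Levels of markers that were not listed are unknown, so no summed level of a list can be given, and the part of these cell types in the Kcn results was not tested.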

How the data were processed

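Hippocampal RNA was extracted with Trizol and made into Illumina libraries, per the labels' protocols. The submitters' processing notes name Bowtie 0.12.2 and build mm8 without their roles. Gene identifiers carry a BALB/cJ prefix in 612 of 637 rows, so the counted annotation was not that of mm8. For the counting program, strand use and test, the sources used here give nothing. The authors deposited a read signal, the mean normalised count of each group, with a log2 fold change (within 5e-05 of the plain log2 ratio of both means, no pseudocount added), a p-value and a Benjamini-Hochberg adjusted p-value. There were 0 columns of values per sample, so no gene was tested again by a model.

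The number of tests was inferred from the p-values: 28319 tests returned the adjusted values in 636 rows within the printed digits. Reads per library were separated from group means by lattice reduction (9 integer relations among the 12 lowest means of each group). Size factors of the 6 libraries ran from 0.837 to 1.20; the depth itself is unknown. Of the means of at most 450, 139 of 172 in ischemia and 189 of 195 in sham had 1 solution. None was left without one (0 in each group). On simulated data, 4 tables of 637 genes, all 673 means with 1 solution were split correctly. Named genes were the Kcn rows, called members of the channel, transport, scaffold and marker lists, and 3 nearest rows per Kcn gene; some genes that this rule names are not reported here. Genes named outside it, after values were seen, were the genomic neighbours Kcnj16 and Scg2 and the uncalled Kir genes Kcnj4, Kcnj10, Kcnj12 and Kcnj14. Kctd21, Clcn3, Clic4, Best3 and Orai2 were also named outside it, after values were seen. The members and lists were chosen with earlier results of these data known. Lengths and exons came from GENCODE M21 and promoters from RefSeq GRCm38.p6; that build is not the authors'. Python 3.11.15, numpy 2.4.6, scipy 1.17.1, sympy 1.14.0 and matplotlib 3.10.9 were used.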

Additional observations from a re-analysis of the deposited data

How the results depend on the processing

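The number of called Kcn genes was 4 as deposited. It was 3 at an adjusted p-value of 0.01, without Kcne4, and 3 when a log2 change of 1 or more in size was required, without Kcng1. It stayed at 4 with a mean of at least 50 normalised reads and with all listed potassium channel genes. With a Bonferroni correction over 28319 tests it was 1, Kcnj2 (corrected p = 7.56e-05, from the authors' p-value); Kcnf1 was at a corrected p = 0.0527. Pseudocounts of 1 and 10 kept the direction of the 4 genes, but a constant added to both means cannot reverse a direction. Division by the group's size factors also kept it. The deposited means are already normalised, so that division shifts all genes alike and gives no independent support for a direction. Kcne4 ranged from 2.06 to 2.74 and Kcnj2 from 3.07 to 3.30 when single libraries were left out, and this could not be run for Kcnf1 and Kcng1, nor for the ischemia libraries of Kcnj2. The level of Kcng1 per kilobase moved by more than 1.5 times with the mean transcript length (610 in ischemia and 1168 in sham). No paired analysis was possible because the table holds group means and the separated libraries carry no replicate number.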

Other observations

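Kctd21 has a description that names potassium channels, but encodes a protein with the tetramerisation domain shared with Kv channels and no pore. It had 511 normalised reads in ischemia and 781 normalised reads in sham in the authors' deposited table (1.53-fold lower, adjusted p = 0.0249, the authors' test). Chloride channel genes changed in both directions in the authors' deposited table. Clcn3, which encodes a chloride and proton exchanger of endosomes, was 1.38-fold higher and Clic4 was 1.46-fold higher. Best3 was lower, with 40.4 normalised reads in ischemia and 99.6 normalised reads in sham (log2 fold change -1.30). Kctd21 and these chloride channel genes were picked after their values were seen. Of the 8 nearest protein-coding neighbours of the 4 Kcn genes on GRCm38, 1 was listed in the authors' deposited table, against 2.25% of all genes. This was the granin gene Scg2, 615 kb from Kcne4, with a log2 fold change of 1.94. With 1 gene, the count was not read as a result, and a link between Scg2 and Kcne4 was not tested.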
